A study of Mus musculus with 4 samples.

Results

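Astrocytes were read out of single-cell RNA-sequencing libraries of the mouse brain after stroke. A barcode, the tag shared by the transcripts of 1 cell, was kept when it held at least 500 unique molecular identifiers (UMIs, counted transcripts) and at least 250 genes, with under 20% of its UMIs from mitochondrial genes. A kept barcode was taken as an astrocyte when at least 3 of the 7 genes Aqp4, Slc1a3, Gja1, Aldh1l1, Slc1a2, Agt and Slc4a4 had a UMI, with Aqp4, Gja1 or Aldh1l1 among them. It also had to hold no UMI of Csf1r, Cldn5, Mag, Foxj1, Dlx1 or Dlx2, which mark microglia, endothelium, oligodendrocytes, ependyma and neuroblasts. This took 1595 of 60942 kept barcodes, or 2.62%. The counts themselves chose the members, so the levels of the genes in the rule describe the choice and support nothing.

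The study closed the middle cerebral artery for a time (transient middle cerebral artery occlusion, tMCAO) in adult mice and took the hemisphere on the side of the stroke 3 days later. The conditional knockout mice, described as Htr2b ERCre; Ms4a3-Cre and labelled Ms4a3-cko, gave 2 libraries, and Htr2b flox/flox littermates, labelled Flox, gave 2 libraries. Mice had tamoxifen and then a washout of 3 days before surgery. Cells were freed with papain and DNase, were not enriched for any type and were captured on BD Rhapsody, a microwell system that tags the 3′ end of transcripts. Ms4a3-Cre follows the lineage of granulocyte-monocyte progenitors, which does not include astrocytes. Whether recombination took place in astrocytes was not tested. The genotype label is C57B6 for all 4 libraries, so the groups rest on the titles and treatment labels, and the labels do not say how many mice, or of which sex, stand behind each, so p-values measure the spread between libraries, which may be technical.

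Astrocytes take up glutamate and GABA released at synapses, turn glutamate into glutamine, buffer potassium and water at end-feet on blood vessels, and are coupled to each other by gap junctions. Near an infarct they become reactive: they raise intermediate filament proteins such as Gfap and Vim, secrete acute-phase proteins and proteoglycans, and in part re-enter the cell cycle to build the glial border around the lesion. The genotype comparison asks whether astrocytes differ when Htr2b, which encodes a serotonin receptor, is targeted in the myeloid lineage.

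The libraries held 77580518 and 84397197 UMIs for Ms4a3-cko and 105566650 and 105545311 UMIs for Flox. Astrocytes numbered 359 and 592 in the Ms4a3-cko libraries, against 185 and 459 in the Flox libraries. They had a median of 2094 and 2310 UMIs in Ms4a3-cko, against 3226 and 3477 UMIs in Flox, and summed to 1044102 and 1719808 UMIs in Ms4a3-cko, against 936545 and 3053246 UMIs in Flox. All kept barcodes were shallower in the same direction, with medians of 3808 and 4027 UMIs in Ms4a3-cko and 6639 and 5547.5 UMIs in Flox. Of the kept barcodes 13 were shared between libraries, and 0 of the astrocyte barcodes were. A doublet caller marked 24 members, 13 and 10 in Ms4a3-cko and 0 and 1 in Flox, and 42 members also met the rule of another cell class.

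Astrocytes made up 2.35% and 3.79% of kept barcodes in Ms4a3-cko (95% exact binomial intervals 2.11 to 2.60% and 3.49 to 4.10%), against 1.37% and 2.78% in Flox (1.18 to 1.58% and 2.53 to 3.04%). The intervals cover counting error only. The groups overlapped, and the difference of 0.994 percentage points had an exact two-sided permutation p of 0.667, where 2 libraries against 2 cannot go below 0.3333. In a restricted set of members, defined below, the shares were 2.00% and 3.12% in Ms4a3-cko, against 1.08% and 1.63% in Flox. The groups did not overlap there (exact permutation p = 0.3333), nor with 4 or more markers or with barcodes thinned to 1000 UMIs before the rule. They still overlapped with 2 or more markers, from 1000 UMIs and without doublets. Over barcodes with no UMI of the leukocyte gene Ptprc, the shares were 5.34% and 7.56% in Ms4a3-cko and 7.26% and 7.28% in Flox, so the sign of the difference turned with the denominator (-0.822 points, exact permutation p = 1).

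The genes of the rule were detected unevenly among members, which describes the choice. Slc1a3, a glutamate transporter, was detected in 96.7% of members, Slc1a2, the main glutamate transporter of the forebrain, in 90.7%, the gap junction protein Gja1 in 87.5%, the bicarbonate cotransporter Slc4a4 in 86.6% and the water channel Aqp4 in 68.2%. Agt, the precursor of angiotensin, was detected in 22.8% and Aldh1l1, a folate enzyme used as a pan-astrocyte marker, in 14.9%. Counts scaled to a common total for each library (CPM) of members, set against all other kept barcodes, put astrocyte genes that the rule did not use far above the rest: Cldn10 was 164-fold, the GABA transporter Slc6a11 157-fold, the neurotensin receptor Ntsr2 156-fold, the gap junction protein Gjb6 130-fold, Etnppl 126-fold and the growth factor receptor Fgfr3 111-fold higher. Gabrg1, Atp13a4, Gpr37l1 and Gabbr2, which the rule did not name, were 101-, 100-, 97.7- and 97.5-fold higher. Tubg2, at 152-fold, rested on Ms4a3-cko-1, where it had 390 CPM, against 19.8 CPM in Ms4a3-cko-2 and 2.14 and 2.62 CPM in the Flox libraries. These ratios are a description, since the cells were chosen on their counts.

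Members near the edge of the rule carried other cells' transcripts. The 317 members with exactly 3 of the 7 genes had 650 CPM of Slc1a2 and 6634 CPM of the collagen gene Col1a1, and a median of 5390 UMIs. Just outside, 435 barcodes with 2 of the genes had 52.1 CPM of Slc1a2, 9078 CPM of Col1a1 and a median of 7660 UMIs. At the far end, the 47 members with all 7 genes had 13491 CPM of Slc1a2 and 49.2 CPM of Col1a1. Slc1a2 is one of the genes counted, so its order follows from the grouping. Col1a1, which the rule did not use, was high at the low end, where the rule took in barcodes rich in collagen.

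Clustering of the members alone gave 12 sub-clusters, which were compared by description and not by test. Sub-clusters 0 to 3 held 1181 members (74.0%), had high Slc1a2 and, apart from choroid plexus transcripts in sub-cluster 0, no leading genes of another lineage. Sub-cluster 3, with 190 members, had the highest transporter levels: Slc1a2 stood at 21719 CPM, the sphingosine-1-phosphate receptor S1pr1 at 4150 CPM in it against 710 CPM in the other members, and the hyaluronan link protein Hapln1 at 230 against 17.1 CPM. Sub-cluster 1, with 295 members, was led by Gpc5, a heparan sulfate proteoglycan, at 3394 against 205 CPM, with the potassium channel Kcnd2 at 1115 against 79.1 CPM, and it held 27010 CPM of the nuclear RNA Malat1. Sub-cluster 0, with 409 members and a median of 1294 UMIs, was the shallowest and had the most Agt, 516 against 66.3 CPM, and Itih3, 773 against 97.3 CPM. Its Ttr level of 2328 CPM rested on 1 barcode with 1290 of the 1508 UMIs.

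Sub-cluster 2, with 287 members, had the most Gfap and Vim among sub-clusters 0 to 3. Gfap, the astrocyte intermediate filament, was at 2059 CPM in it against 80.2 CPM in the other members and was detected in 85.0% against 15.9%. Vim, a second filament gene, stood at 10341 CPM and was found in 97.2%. The fatty acid binding protein Fabp7, high in radial glia, was at 2771 against 302 CPM, with Ptx3, Hspb6, Cybrd1 and Thbs4 also among its 8 leading genes. It held most of the cycling signal of the astrocyte-led sub-clusters: Mki67 was at 346 CPM in sub-cluster 2 and at 24.7, 11.1 and 8.27 CPM in sub-clusters 0, 1 and 3. Transporters were lower in it than in sub-cluster 3, with Slc1a2 at 6351 CPM, and Gjb6 was at 243 CPM against 3031 CPM in sub-cluster 3. Not every reactive gene was highest in sub-cluster 2. Serpina3n was at 1496 CPM in sub-cluster 6 against 415 CPM in sub-cluster 2, and Cd44 at 1552 CPM in sub-cluster 5 against 641 CPM.

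**Figure D1:**
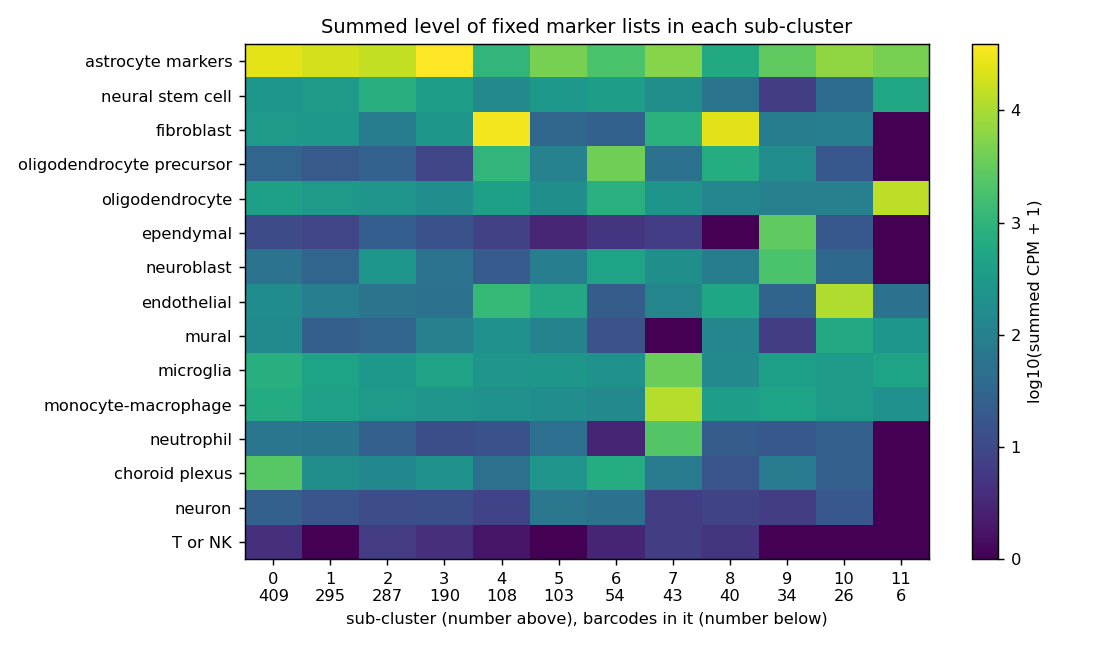
Summed level of 15 marker lists (down) in each of the 12 sub-clusters of members (across, with the number of barcodes), as log10 of summed CPM plus 1. Sub-clusters 0 to 3 are brightest in the astrocyte row alone, while 4 and 8 are brightest for fibroblast markers, 9 holds ependymal, 10 endothelial and 7 myeloid markers beside the astrocyte ones.

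The remaining sub-clusters other than 5 were led by genes that are not typical of astrocytes. Sub-clusters 4 and 8, with 108 and 40 members, had medians of 11449 and 19657.5 UMIs, and held 28.2 and 8.92 CPM of Slc1a2. Sub-cluster 4 was led by Aox3, Mc5r and others that include the elastin gene Eln, and sub-cluster 8 by Olr1, Meox1 and the cycling genes E2f8 and Plk4. In sub-cluster 4 the summed fibroblast markers reached 32218 CPM, and in sub-cluster 8 24229 CPM. Sub-cluster 6, 54 members, was led by Vxn, Neto1 and the oligodendrocyte-lineage factor Sox10, with 3899 CPM of oligodendrocyte precursor markers. Sub-cluster 7, 43 members, was myeloid, and 23.3% of it were called doublets, and sub-cluster 10, 26 members, had the endothelial gene Ly6c1 in every member and 19.2% called doublets. Sub-cluster 9, 34 members, had the ciliary gene Tmem212 in 97.1%, and the 6 members of sub-cluster 11, all from Flox-1, shared Npy and carried Foxd3 in 66.7%. These sub-clusters are described by their leading genes and are not called astrocytes here.

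Sub-cluster 5, with 103 members, was led by no lineage. Its leading genes were bursts of rare transcripts in single barcodes: Gal3st2 reached 648 UMIs in 1 barcode, Shoc1 478 and Tomt 429. A burst, taken as 50 or more UMIs of a gene that under 1% of members detect, occurred in 17 members, all of them in this sub-cluster. Beside the bursts, 4 genes picked after their values were seen were detected in it at other shares than in the other members, at a median of 4287 UMIs, against 1294 to 2838.5 UMIs in sub-clusters 0 to 3, so depth was not matched: the p53 target Mdm2 was detected in 53.4% against 12.2%, the cell cycle inhibitor Cdkn1a in 50.5% against 15.7%, the stress cytokine Gdf15 in 34.0% against 0.871% and the growth factor Hbegf in 58.3% against 12.8%. Mitochondrial UMIs were low, with a median of 2.01%, and Slc1a2 was at 2504 CPM. It held 36 and 58 members in Ms4a3-cko, against 0 and 9 members in Flox, and no test was made of these sizes because genes that lead it also differ between the genotypes.

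The mix behind each library's summed astrocyte counts was therefore unequal before any gene was compared. Sub-clusters 0 to 3 gave 64.2% and 62.2% of member UMIs in Ms4a3-cko, against 51.1% and 35.2% in Flox. The collagen sub-clusters 4 and 8 gave 7.33% and 6.14% of member UMIs in Ms4a3-cko, against 30.0% and 49.99% in Flox. Sub-cluster 5 gave 14.8% and 15.1% in Ms4a3-cko, against 0% and 1.97% in Flox. In summed counts a different mix of cells and a different level per cell cannot be told apart.

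**Figure D2:**
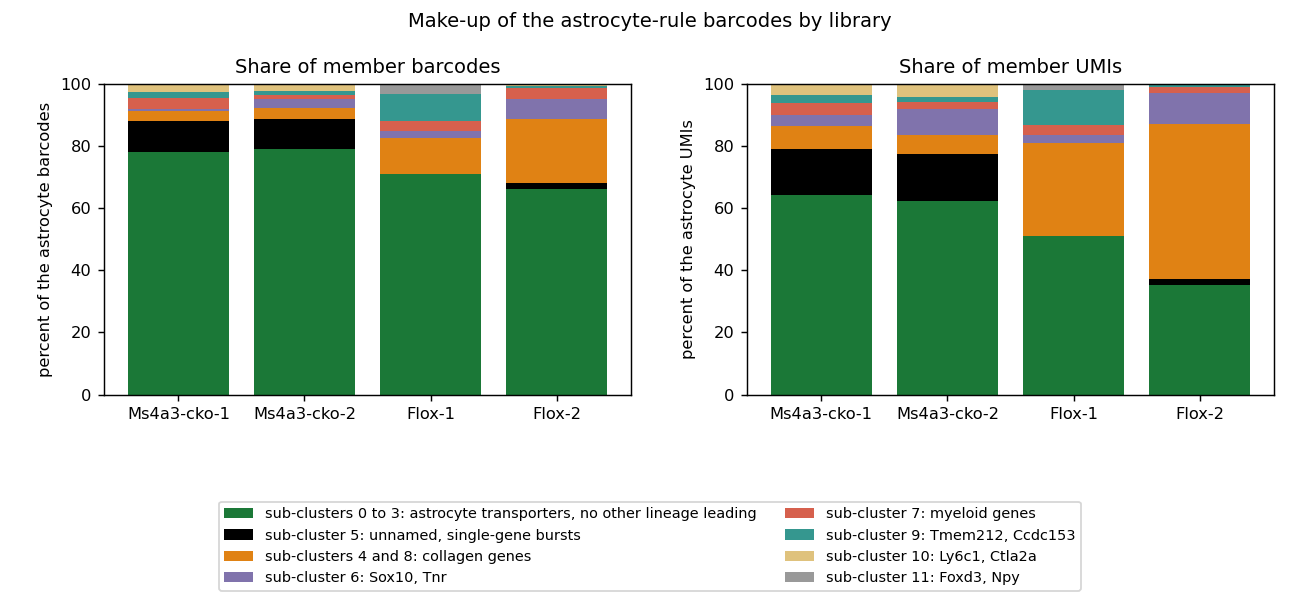
Share of each library's member barcodes (left) and member UMIs (right), in percent, by group of sub-clusters, for Ms4a3-cko-1, Ms4a3-cko-2, Flox-1 and Flox-2. The collagen sub-clusters take 7.33% and 6.14% of UMIs in the Ms4a3-cko libraries and 30.0% and 49.99% in the Flox libraries, and sub-cluster 5 lies almost wholly in Ms4a3-cko.

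A narrower set was used beside all members. It left out every member with a UMI of Ptprc, Pecam1, Mog, Dcn or Pdgfra, genes of leukocytes, endothelium, oligodendrocytes, fibroblasts and oligodendrocyte precursors, and kept 1207 members: 305 and 487 in Ms4a3-cko, 146 and 269 in Flox. Sub-clusters 0 to 3 made up 87.7% of this restricted set. The summed level of the 4 fibroblast markers was 1064 and 1255 CPM in Ms4a3-cko, against 8560 and 15526 CPM in Flox, over all members, and 165 and 209 CPM in Ms4a3-cko, against 140 and 134 CPM in Flox, in the restricted set, where 1 of the 4 was at 0 by construction. Summed astrocyte markers came to 17608 and 22085 CPM in Ms4a3-cko and 17319 and 19207 CPM in Flox in the restricted set. The ependymal markers still set Flox-1 apart, with 81.3 and 49.1 CPM in Ms4a3-cko and 621 and 19.0 CPM in Flox. The 6 endothelial markers, of which 1 was at 0 by construction, separated the genotypes in this set, at 314 and 299 CPM in Ms4a3-cko and 18.1 and 97.3 CPM in Flox.

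The gene aimed at was near its floor in astrocytes. Htr2b had 4 and 10 UMIs over all members of the Ms4a3-cko libraries (3.83 and 5.81 CPM), against 2 and 13 UMIs in the Flox libraries (2.14 and 4.26 CPM). Ms4a3 had 0 UMIs in members of all 4 libraries. Microglia held 53.5 and 46.9 CPM of Htr2b in Ms4a3-cko, against 19.8 and 57.3 CPM in Flox. The sources used here do not say which exons are floxed, and tags at the 3′ end need not lie in the deleted part, so these counts do not check recombination.

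Across all members no gene differed by genotype at an adjusted p under 0.05 (edgeR quasi-likelihood, Benjamini-Hochberg, 0 of 10745 genes tested, 0%). At an unadjusted p under 0.05, 2246 genes (20.9%) differed, 1157 (10.8%) of them higher and 1089 (10.1%) lower in Ms4a3-cko, and DESeq2 called 516 (4.8%). The count rested on which libraries were compared: edgeR called 14 genes without either Ms4a3-cko library, 1613 without Flox-1 and 657 without Flox-2, where the lone library is assumed to vary like the other group. The genes with the smallest p on the lower side were matrix genes: Col1a1 had 119 and 189 CPM in Ms4a3-cko, against 3269 and 4679 CPM in Flox, a log2 difference of -4.72 (edgeR adjusted p = 0.0537). In the restricted set Col1a1 differed by -0.40. Col3a1, Nid1, Col6a1, Pmepa1, Col18a1, Nrep and Lox stood beside it over all members. Sub-clusters 4 and 8 held 86.3% and 93.2% of the Col1a1 UMIs of all members in Ms4a3-cko, and 99.4% and 99.5% in Flox.

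In the restricted set 3 of 9006 genes (0.0333%) passed, all higher in Ms4a3-cko: Gpbp1l1, Ambra1 and Spata1. At an unadjusted p under 0.05, 1515 genes (16.8%) differed, 826 (9.17%) of them higher and 689 (7.65%) lower, and DESeq2 called 132 (1.47%). Gpbp1l1, a paralog of the transcriptional regulator Gpbp1 on chromosome 4 (GRCm38, 116557658 to 116593882, plus strand), had 1711 and 1657 CPM in Ms4a3-cko, against 50.7 and 54.8 CPM in Flox (log2 fold change 4.98, SE 0.235, edgeR adjusted p = 0.00238). Ambra1, an activator of autophagy on chromosome 2 (91730134 to 91918849, plus strand), had 616 and 722 CPM in Ms4a3-cko, against 77.9 and 62.6 CPM in Flox (3.25, SE 0.251, edgeR adjusted p = 0.0284). Spata1, a spermatogenesis-associated gene on chromosome 3 (146457196 to 146499753, minus strand) that overlaps Ctbs on the other strand, had 1408 and 693 CPM in Ms4a3-cko, against 25.4 and 13.4 CPM in Flox (5.80, SE 0.510, edgeR adjusted p = 0.0434). In each of these genes both Ms4a3-cko libraries lay far above both Flox libraries, which describes genes picked by p and adds no support. Endothelial markers were also higher in Ms4a3-cko in this set, and endothelial cells themselves held 83.4 and 97.3 CPM of Gpbp1l1, 84.0 and 81.2 CPM of Ambra1 and 13.7 and 17.6 CPM of Spata1 in Ms4a3-cko, below the levels of the restricted set. With 1 library left out edgeR called 114 genes without Ms4a3-cko-1, 59 without Ms4a3-cko-2, 1 without Flox-1 and 52 without Flox-2.

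These rises came from few barcodes. Sub-cluster 5 held 91.3% of the Gpbp1l1 UMIs of all members, 70.0% of those of Ambra1 and 95.7% of those of Spata1. Single barcodes held 645 UMIs of Gpbp1l1 (16.7% of its total), 522 of Ambra1 (30.2%) and 1036 of Spata1 (50.7%). In the restricted set without sub-cluster 5, a value given with no test, Gpbp1l1 was at 67.9 and 62.1 CPM in Ms4a3-cko and 50.7 and 54.2 CPM in Flox, Ambra1 at 134 and 115 CPM in Ms4a3-cko and 77.9 and 61.1 CPM in Flox, and Spata1 at 15.1 and 16.5 CPM in Ms4a3-cko and 25.4 and 13.8 CPM in Flox. Without the burst barcodes, a setting chosen after seeing the data, Gpbp1l1 and Ambra1 still passed and Spata1 had an edgeR adjusted p of 0.0761. Without Flox-1, Gpbp1l1 alone passed (edgeR adjusted p = 0.0262, against 0.14 for Ambra1 and 0.174 for Spata1). Dcaf17 and Agbl3 (edgeR adjusted p = 0.0566 each) and Tesk2 (0.12), which did not pass, had 92.7%, 91.8% and 91.9% of their UMIs in sub-cluster 5. Fto, an RNA demethylase, had 381 and 506 CPM in Ms4a3-cko, against 77.9 and 63.7 CPM in Flox (edgeR adjusted p = 0.0566), with 64.6% of its UMIs there.

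**Figure D3:**
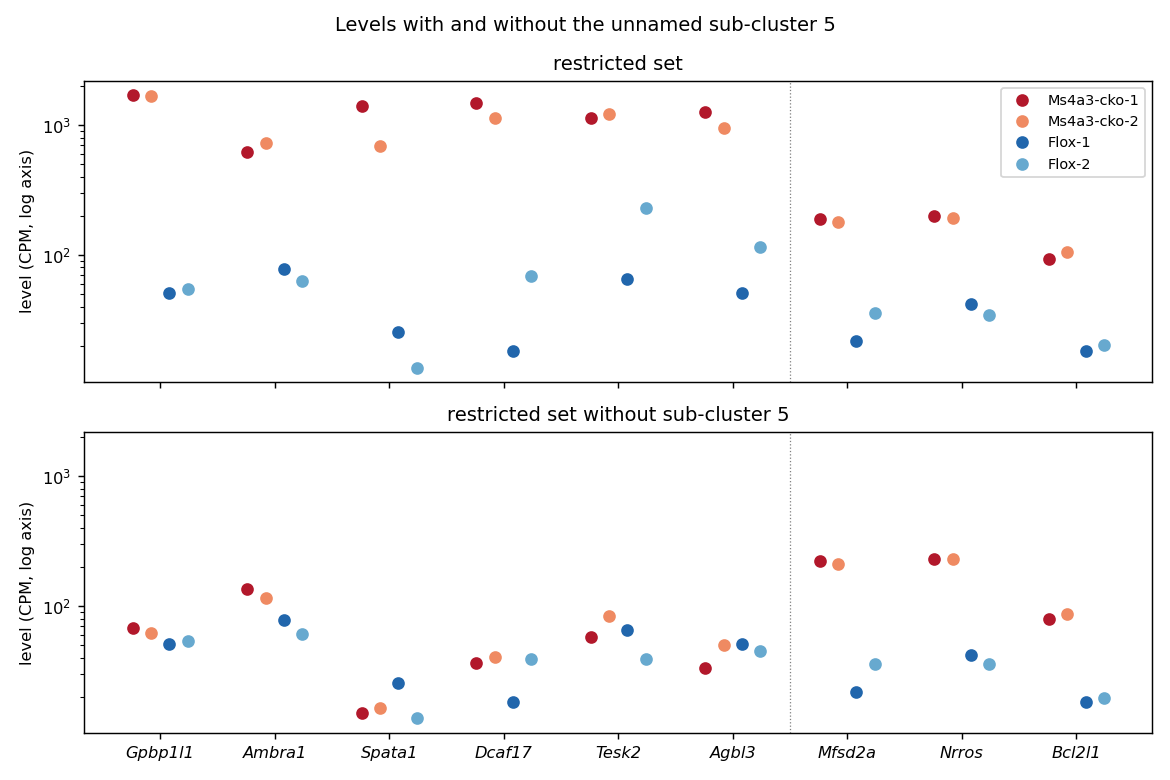
Level of 9 genes in CPM (log axis) in each library, over the restricted set (above) and over the restricted set without sub-cluster 5 (below); each point is 1 library. Left of the dotted line, Spata1, Dcaf17, Tesk2 and Agbl3 overlap between the genotypes in the lower panel, Gpbp1l1 and Ambra1 stay higher in Ms4a3-cko by a much smaller distance (134 and 115 CPM in Ms4a3-cko, 77.9 and 61.1 CPM in Flox for Ambra1), and Mfsd2a, Nrros and Bcl2l1 to the right keep it.

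A second kind of gene was spread over many members. Mfsd2a, a carrier of lysophospholipids, had 189 and 180 CPM in Ms4a3-cko, against 21.7 and 35.8 CPM in Flox, in the restricted set (log2 difference 2.63, SE 0.295, edgeR adjusted p = 0.0566). Nrros, which anchors latent TGF-beta, had 198 and 193 CPM in Ms4a3-cko, against 41.7 and 34.7 CPM in Flox, and Bcl2l1, an inhibitor of apoptosis, had 92.7 and 105 CPM in Ms4a3-cko, against 18.1 and 20.1 CPM in Flox. They were detected in 359, 346 and 220 members, with at most 3.92% of UMIs in 1 barcode. None passed the threshold (edgeR adjusted p 0.0566, 0.0566 and 0.0629 in the restricted set), and both Ms4a3-cko libraries lay above both Flox libraries in each. The genes were picked for a small p, so this order describes the choice and adds no support. The share of all tested genes with such an order is not given here. In endothelial cells, which use Mfsd2a at the blood-brain barrier, its log2 difference was -0.02, and in oligodendrocytes 2.89 (edgeR adjusted p = 0.0611 in that class).

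On the lower side of the restricted set no gene passed either. Fabp7 had 467 and 234 CPM in Ms4a3-cko, against 1915 and 2096 CPM in Flox (log2 difference -2.53, SE 0.351, edgeR adjusted p = 0.0704). Ncan, the brain proteoglycan neurocan, had 39.4 and 57.0 CPM in Ms4a3-cko, against 380 and 271 CPM in Flox (-2.75, SE 0.311, edgeR adjusted p = 0.0566). Ptn, the secreted growth factor pleiotrophin, had 484 and 515 CPM in Ms4a3-cko, against 1274 and 1474 CPM in Flox (-1.47, SE 0.202, edgeR adjusted p = 0.0692). Both Flox libraries exceeded both Ms4a3-cko libraries in each, an order that again goes with the choice by p. The nucleosome-binding gene Hmgn2 (-1.93), Tmem132b (-1.89), the maternally silenced Ndn (-2.06), Ecrg4 (-3.29) and Nrep (-3.72) made up the rest of the 8 with the smallest p, at edgeR adjusted p between 0.0566 and 0.0692. With reads thinned to 1000 UMIs a cell, Fabp7 was found in 12.2% and 10.9% of members in Ms4a3-cko, against 26.7% and 36.5% in Flox (exact permutation p = 0.3333, the smallest the design allows), and in microglia, which should lack it, in 0.0317% and 0.149% in Ms4a3-cko, against 0.0843% and 0.281% in Flox. Within the Gfap-rich sub-cluster 2, Ncan kept the same order, with 45.5 and 155 CPM in Ms4a3-cko and 867 and 330 CPM in Flox. Fabp7 was also lower in oligodendrocytes, at 2.29 and 3.72 CPM in Ms4a3-cko, against 30.9 and 14.7 CPM in Flox (log2 difference -2.98, edgeR adjusted p = 0.108). Its effect in the restricted set did not differ from that in oligodendrocytes at the threshold (difference of effects 0.28, edgeR adjusted p = 0.933).

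**Figure D4:**
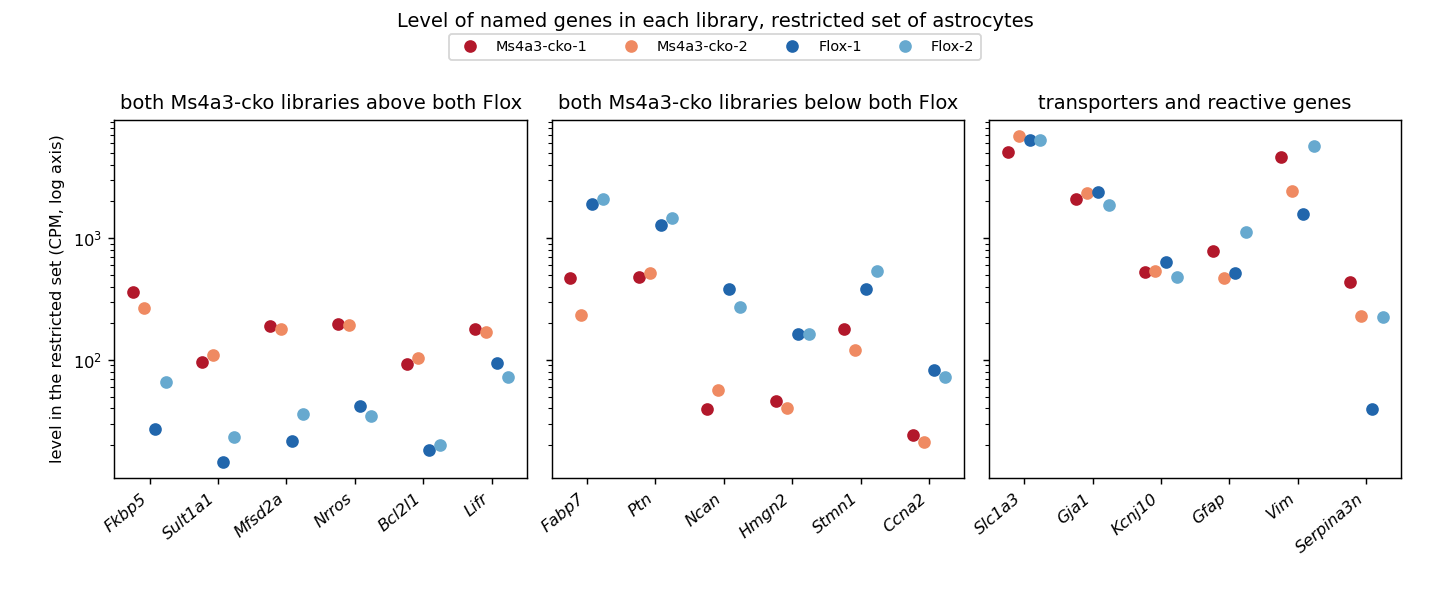
Level in CPM (log axis) of 18 genes in each library of the restricted set; each point is 1 library. Fkbp5, Sult1a1, Mfsd2a, Nrros, Bcl2l1 and Lifr (left) have both Ms4a3-cko libraries above both Flox libraries, Fabp7, Ptn, Ncan, Hmgn2, Stmn1 and Ccna2 (middle) have them below, and at right the libraries of the 2 genotypes are mixed for Slc1a3, Gja1, Kcnj10, Gfap and Vim. None of these genes passed the threshold. Those at left and in the middle were picked by p or after their values were seen, so their order adds no support.

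Genes were also read by 24 lists with 400 genes. No member of any list passed in either set, so lists are given by the number of members past an unadjusted p of 0.05 and by their median log2 difference, against a median of -0.01 over all genes of the restricted set and the shares of 9.17% higher and 7.65% lower given above. Medians of the other 20 lists lay between -0.33 and 0.46. The 4 lists outside that range were glucocorticoid response at 1.10, gp130 signalling at 0.56, interferon response at -1.05 and cell cycle at -1.08.

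Glucocorticoid-responsive genes were the list with the highest median. In the restricted set 11 of 19 were higher and 0 lower at an unadjusted p under 0.05, and over all members 15 of 19 were higher and 0 lower, with a median of 1.53. Fkbp5, a co-chaperone that the glucocorticoid receptor itself induces, had 362 and 269 CPM in Ms4a3-cko, against 27.2 and 66.0 CPM in Flox (log2 difference 2.70, SE 0.405, edgeR adjusted p = 0.0844). Sult1a1, a sulfotransferase, had 96.5 and 109 CPM in Ms4a3-cko, against 14.5 and 23.5 CPM in Flox (2.38, SE 0.318, edgeR adjusted p = 0.0692). Klf9, a transcription factor, had 748 and 757 CPM in Ms4a3-cko, against 406 and 388 CPM in Flox (0.91). In each, both Ms4a3-cko libraries were above both Flox libraries, but the genes were picked by p or after their values were seen. Leaving out 1 library at a time kept the list's median between 1.09 and 1.41. The GTPase Arl4d differed by 2.22, the kinase Sgk1 by 1.48 and the connexin Gjb6 by 1.07. Cdkn1a, at 155 and 293 CPM in Ms4a3-cko and 25.4 and 66.0 CPM in Flox, had 51.8% of its UMIs over all members in sub-cluster 5, and without that sub-cluster stood at 86.0 and 98.1 CPM in Ms4a3-cko and 25.4 and 36.9 CPM in Flox. The metallothionein Mt1 had 1530 and 1508 CPM in Ms4a3-cko, against 254 and 935 CPM in Flox, with Flox-1 the lower of the Flox libraries. In the Gfap-rich sub-cluster 2, Fkbp5 was at 380 and 287 CPM in Ms4a3-cko and 11.9 and 56.0 CPM in Flox, from 2 UMIs in Flox-1.

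Other cell classes of the same libraries had differences in the same direction for most of these genes. Fkbp5 had 847 and 769 CPM in Ms4a3-cko microglia, against 254 and 265 CPM in Flox microglia (log2 difference 1.51), a difference of 2.50 in endothelial cells and one of 3.26 in oligodendrocytes, where it passed (edgeR adjusted p = 0.0377). The difference between the effect in astrocytes and that in microglia, oligodendrocytes or endothelial cells did not pass for Fkbp5 (edgeR adjusted p 0.495, 0.342 and 0.902). Pik3ip1, an inhibitor of PI3-kinase, differed by 0.87 in the restricted set of astrocytes and by 3.57 in microglia (difference of effects -2.62, edgeR adjusted p = 0.0176). Sult1a1 and Mt2 had larger effects in oligodendrocytes than in the restricted set (-4.21 and -2.49, edgeR adjusted p = 0.0371 and 0.0322).

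**Figure D5:**
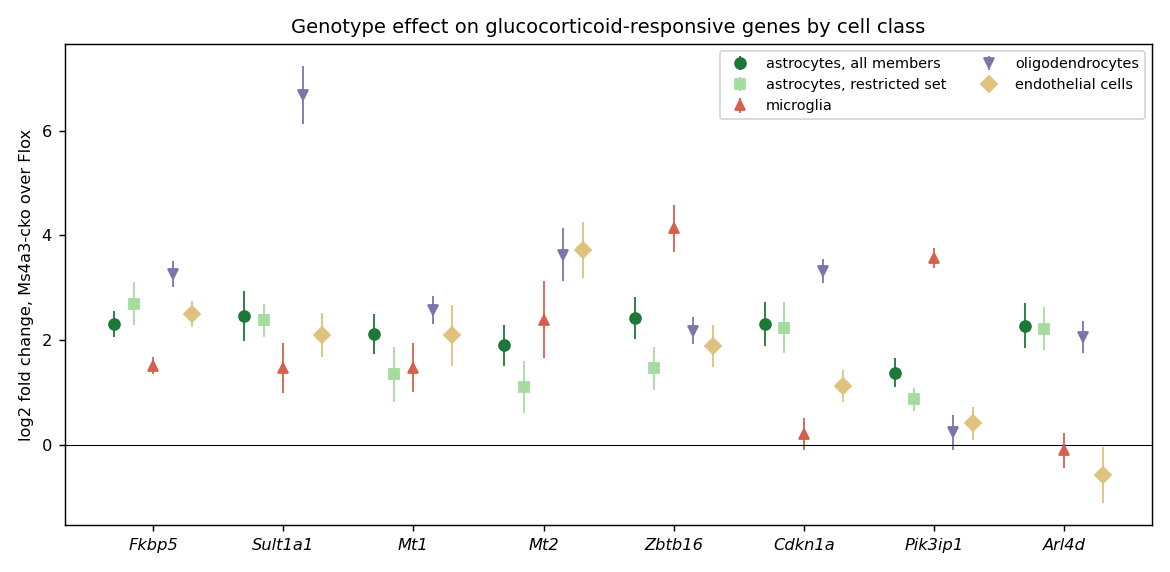
Log2 fold change of 8 glucocorticoid-responsive genes, Ms4a3-cko over Flox, in astrocytes (all members and restricted set), microglia, oligodendrocytes and endothelial cells, with bars of 1 standard error from edgeR. Fkbp5, Sult1a1, Mt1, Mt2 and Zbtb16 are above 0 in every class shown, while Pik3ip1 is highest in microglia (3.57) and Arl4d is near or below 0 in microglia and endothelial cells.

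Cell cycle genes were the list with the lowest median. In the restricted set 0 of 19 were higher and 10 lower at an unadjusted p under 0.05, with the list's median between -1.43 and -0.71 when 1 library at a time was left out, and over all members 0 of 20 were higher and 1 lower. Ccna2, the cyclin of S phase and G2, had 24.1 and 21.4 CPM in Ms4a3-cko, against 83.3 and 72.7 CPM in Flox (log2 difference -1.79, edgeR adjusted p = 0.101). Stmn1, a microtubule regulator of dividing cells, had 179 and 120 CPM in Ms4a3-cko, against 379 and 535 CPM in Flox (-1.63, edgeR adjusted p = 0.12). Cdk1, the mitotic kinase, had 34.3 and 20.6 CPM in Ms4a3-cko and 67.04 and 77.2 CPM in Flox (-1.44), and Top2a, the topoisomerase of dividing cells, 72.4 and 84.0 CPM in Ms4a3-cko and 111 and 179 CPM in Flox (-0.90). The Flox libraries were the higher ones in all 4 genes, and Flox-2 the highest in 3 of them. The 4 genes were picked by p or after their values were seen. In shares of thinned cells the order was not the same: Top2a was found in 4.10% and 3.80% of the restricted set in Ms4a3-cko, against 2.16% and 8.90% in Flox (exact permutation p = 1), and in 5.73% and 6.29% of microglia in Ms4a3-cko and 5.31% and 9.48% in Flox. Over all members, Top2a and Mki67 turned to positive differences, 0.44 and 0.50, without Flox-2.

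The promoters of Cdk1 and Top2a are shown because promoters of mitotic genes are known for shared elements. They are the 250 bases before the RefSeq start on GRCm38.p6, 5′ to 3′ on the gene's strand, chr10:69352913-69353162 (minus) and chr11:99024190-99024439 (minus). Capitals mark CCAAT, the box bound by NF-Y, and TTTGAA, the core of the cell cycle homology region, each searched on both strands.
Cdk1: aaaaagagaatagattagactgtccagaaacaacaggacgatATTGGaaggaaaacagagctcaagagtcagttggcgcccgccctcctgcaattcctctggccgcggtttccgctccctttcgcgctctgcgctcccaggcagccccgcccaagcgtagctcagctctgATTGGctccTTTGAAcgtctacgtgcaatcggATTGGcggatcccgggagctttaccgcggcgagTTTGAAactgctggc
Top2a: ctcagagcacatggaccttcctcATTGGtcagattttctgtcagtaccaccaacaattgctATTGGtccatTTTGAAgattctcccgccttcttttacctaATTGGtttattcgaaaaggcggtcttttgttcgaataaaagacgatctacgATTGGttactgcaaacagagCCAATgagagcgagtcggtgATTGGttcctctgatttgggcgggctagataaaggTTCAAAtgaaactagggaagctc
CCAAT occurred 3 times before Cdk1 and 6 times before Top2a, and TTTGAA 2 times before each, with no overlap between the motifs. Of 16 list genes with a promoter in RefSeq, 14 held CCAAT and 7 held TTTGAA, against 33.8% and 16.0% of 32851 promoters of the same length. A match describes the letters and not binding.

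Interferon-response genes had a median of -1.05 in the restricted set, with 0 of 12 higher and 3 lower at an unadjusted p under 0.05. The membrane protein Ifitm3 had 235 and 173 CPM in Ms4a3-cko, against 404 and 294 CPM in Flox (log2 difference -0.79, edgeR adjusted p = 0.24). Ifit3 stood at 14.0 and 62.6 CPM in Ms4a3-cko and 179 and 48.1 CPM in Flox, so the groups overlapped. Flox-1 was the highest library in these genes, and without it the list's median was -0.37. Flox-1 was also the library with the most ependymal signal, and the part of that in these values was not tested.

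Reactive genes showed no common direction. Of the 11 pan-reactive genes tested in the restricted set, 2 were higher and 2 lower at an unadjusted p under 0.05, with a median of 0.11. Gfap had 778 and 471 CPM in Ms4a3-cko, against 516 and 1115 CPM in Flox (log2 difference -0.40, SE 0.403, edgeR adjusted p = 0.657), and 0.11 over all members. Vim had 4673 and 2442 CPM in Ms4a3-cko, against 1587 and 5660 CPM in Flox (-0.03). For both filament genes the Flox libraries differed from each other more than the genotypes did. The small heat shock protein Hspb1 (2.39) and Osmr, the oncostatin M receptor (1.42), were on the higher side, and the chemokine Cxcl10 (-1.28) and S1pr3 (-1.60) on the lower side, at edgeR adjusted p between 0.148 and 0.252. The protease inhibitor Serpina3n had 434 and 228 CPM in Ms4a3-cko, against 39.9 and 226 CPM in Flox (1.27), and the iron-trafficking protein Lcn2 had 76.2 and 14.3 CPM in Ms4a3-cko, against 1.81 and 17.9 CPM in Flox (1.97). Neutrophil markers followed the same libraries, at 122 and 25.4 CPM in Ms4a3-cko and 1.81 and 24.6 CPM in Flox, and thinned microglia held Lcn2 in 2.44% and 0.348% in Ms4a3-cko and 0% and 0.0804% in Flox. Endothelial cells held 724 and 188 CPM of Lcn2 in Ms4a3-cko, against 26.4 and 9.81 CPM in Flox. Within sub-clusters 0 to 3 of the restricted set, Lcn2 stood at 23.3 and 13.3 CPM in Ms4a3-cko and 0 and 18.8 CPM in Flox. The parts of neutrophil and endothelial RNA in the Lcn2 values were not tested.

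Shares of cells told the same of these genes. With every member thinned to 1000 UMIs (295 and 488 in Ms4a3-cko, 176 and 367 in Flox, with 64, 104, 9 and 92 shallower members left out), Gfap was found in 16.9% and 16.2% in Ms4a3-cko, against 9.66% and 21.3% in Flox (exact permutation p = 1). Without thinning the shares were 30.9% and 25.7% in Ms4a3-cko and 21.1% and 32.7% in Flox. In thinned microglia Gfap was found in 0.285% and 0.174% in Ms4a3-cko and 0.0843% and 0.321% in Flox, so the shares of members lay well above that background. Serpina3n was found in 16.6% and 13.9% of members in Ms4a3-cko, against 5.11% and 12.5% in Flox, and Vim in 35.6% and 30.1% in Ms4a3-cko, against 29.5% and 65.7% in Flox. Vim in the restricted set, which leaves out most of the collagen sub-clusters, was found in 34.0% and 27.1% in Ms4a3-cko, against 23.7% and 48.7% in Flox (exact permutation p = 1). Serpina3n behaved otherwise in endothelial cells, where it had 98.5 and 101 CPM in Ms4a3-cko, against 0 and 7.55 CPM in Flox, and the difference of effects passed (-3.18 with all astrocytes, edgeR adjusted p = 0.0437).

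The gp130 list, receptors and effectors of oncostatin, LIF and interleukin-6 that drive astrocyte reactivity through Stat3, had 5 of 12 genes higher and 0 lower at an unadjusted p under 0.05 in the restricted set. Lifr, the LIF receptor, had 180 and 169 CPM in Ms4a3-cko, against 94.2 and 72.7 CPM in Flox (log2 difference 1.06, edgeR adjusted p = 0.164), and the kinase Pim3 had 96.5 and 94.3 CPM in Ms4a3-cko, against 36.2 and 45.9 CPM in Flox (1.19). Osmr and Il6ra, at 1.42 and 1.33, were the other receptors. Ptpn2, a phosphatase that dampens the pathway, at 3.13, had 60.2% of its UMIs over all members in 1 barcode, and 47.3% of those of Stat3 came from 1 barcode.

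Genes of transport and metabolism had medians near that of all genes in the restricted set, and the levels of Slc1a2, Slc1a3 and Aqp4 are conditioned on the rule. The glutamate list had a median of 0.00, with 1 of 15 genes higher and 1 lower: Slc1a2 had 9425 and 11732 CPM in Ms4a3-cko, against 7030 and 9540 CPM in Flox (0.34), and Slc1a3 had 5074 and 6906 CPM in Ms4a3-cko, against 6357 and 6333 CPM in Flox (-0.10). Glul, which makes glutamine, had 5339 and 6342 CPM in Ms4a3-cko, against 3915 and 3896 CPM in Flox (0.57, SE 0.203, edgeR adjusted p = 0.249), and the glutamate receptor Grm5 was on the lower side at -1.11. The list of ion, water and gap junction genes had a median of 0.14, with Kcnj10, the potassium channel of end-feet, at 531 and 540 CPM in Ms4a3-cko and 638 and 479 CPM in Flox (-0.07), and Aqp4 at 942 and 1007 CPM in Ms4a3-cko, against 1540 and 1386 CPM in Flox (-0.60, edgeR adjusted p = 0.228). In thinned cells of the restricted set Aqp4 was found in 54.9% and 51.9% in Ms4a3-cko, against 68.3% and 68.1% in Flox (exact permutation p = 0.3333). Its share of 0% in microglia was fixed beforehand, because that class was chosen to hold no UMI of Aqp4. Over all members the medians of these lists were 0.55 and 0.60, and Slc1a3, Kcnj10 and Aqp4 changed sign between the sets. Why was not tested.

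Several smaller sets held genes on both sides. Of 18 lysosome and phagocytosis genes 5 were higher and 0 lower at an unadjusted p under 0.05, among them Mertk, the receptor with which astrocytes engulf synapses, at 447 and 525 CPM in Ms4a3-cko and 265 and 225 CPM in Flox (log2 difference 0.98, edgeR adjusted p = 0.156), its ligand Gas6 (0.94) and the proteases Ctsl (0.87) and Lgmn (0.79). Of 20 glycolysis and hypoxia genes 2 were higher and 4 lower; the lower ones were the enzymes Pgam1, Pgk1 (-0.93), Ldha (-0.99) and Tpi1 (-1.02), for which reads shared with near-identical copies are uncertain. The matricellular protein Sparc had 2404 CPM in both Ms4a3-cko libraries, against 1102 and 1324 CPM in Flox (0.97, edgeR adjusted p = 0.136). Among clock genes, Npas2 differed by 1.46 and Arntl by 1.28 while Dbp differed by -1.40, and of 16 tested 2 were higher and 1 lower. Of 19 neural stem genes 1 was higher and 4 lower, with Sox2 at -0.71 and Hes5 at -1.44 beside Fabp7.

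The genotype effect in astrocytes was also tested against that in other classes in 1 fit each, with the library as a block. Against microglia 9 of 14351 genes passed (0.0627%), against oligodendrocytes 18 of 12893 (0.14%) and against endothelial cells 51 of 12387 (0.412%), by edgeR with Benjamini-Hochberg adjustment. With the restricted set the counts were 23 (0.163%) against microglia, 23 (0.183%) against oligodendrocytes and 40 of 12000 genes against endothelial cells. Without 1 library at a time, in the order Ms4a3-cko-1, Ms4a3-cko-2, Flox-1 and Flox-2, all astrocytes gave 0, 0, 354 and 53 genes against microglia, 1, 0, 350 and 202 against oligodendrocytes and 235, 218, 641 and 199 against endothelial cells. Gpbp1l1 passed against each of these classes over all members, with differences of effects from 3.89 to 4.20. With DESeq2 size factors its edgeR adjusted p was 0.0518 against microglia, 0.0509 against oligodendrocytes and 0.00677 against endothelial cells, so the calls against microglia and oligodendrocytes were lost. It was at 95.5 and 92.7 CPM in Ms4a3-cko microglia, against 69.2 and 78.4 CPM in Flox microglia. On the lower side, Fn1 differed by -3.57 from microglia with all members and by 0.46 with the restricted set. Of its UMIs in members of the Flox libraries, 98.3% and 97.0% came from sub-clusters 4 and 8.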

How the data were processed

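The authors deposited raw UMI counts per gene and barcode for 4 libraries (31253 genes), made with fastp 0.24.0 and STARsolo on mm10, per the submitters' processing notes; the strand used in counting is not given in the sources used here. Kept barcodes and members followed the rule above. Counts of members were summed per library and tested with edgeR 4.0.16 (quasi-likelihood, TMM scaling, its filter on low counts, Benjamini-Hochberg adjustment, threshold 0.05), with DESeq2 1.42.0 as an alternative. Differences of effects between classes used both classes in 1 fit with the library as a block. Shares used an exact two-sided permutation test. Members were clustered with scanpy 1.11.5 and Leiden at resolution 0.5 and doublets were called with Scrublet. Genes named by rule, leaving out sex-linked, Gm, Rik and mitochondrial ones, are those past the threshold, otherwise the 8 with the smallest p in each direction at a mean of at least 20 CPM, up to 5 of each list, the 15 highest ratios to other barcodes, the leading 8 of each sub-cluster and 5 in each direction for differences between classes. Other named genes were chosen after their values were seen. The members and lists were chosen with earlier results of these data known. The edgeR genotype fit was tested on simulated counts. It recovered 2% of 2-fold and 37% of 4-fold changes over all members, and 9% and 68% in the restricted set. Some results are not reported here.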

Additional observations from a re-analysis of the deposited data

Results flagged for a closer look

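Effects of genotype that differed between astrocytes and another class at an edgeR adjusted p under 0.05 are given as the log2 effect in astrocytes minus that in the other class. Against microglia they were Spata1 (5.69), BC018473 (12.98), Dcaf17 (4.82), Gpbp1l1 (3.89), Efr3b (3.54), Postn (-5.54) and Fn1 (-3.57). Against oligodendrocytes they were Spata1 (6.19), Tesk2 (4.33), Dcaf17 (4.77), the proteoglycan Bcan (3.22), Gpbp1l1 (4.01), the hedgehog factor Gli2 (-4.82), Col6a3 (-4.91), Pmepa1 (-3.03), Fn1 (-4.34) and Itih5 (-3.81). Against endothelial cells they were Dcaf17 (4.99), Gpbp1l1 (4.20), Efr3b (3.22), Ambra1 (2.85), Prrx2 (7.07), Grb10 (-2.89), the interferon-induced Ifitm1 (-2.45), Frzb (-4.07), Ppic (-2.69) and Fn1 (-2.89). BC018473 had 278 of its UMIs in 1 astrocyte barcode. Gli2, Itih5 and Bcan overlapped between the genotypes in astrocytes over all members, and did not in oligodendrocytes. Gli2 had 22.0 and 32.0 CPM in Ms4a3-cko astrocytes, against 37.4 and 22.9 CPM in Flox. In oligodendrocytes it had 23.1 and 29.0 CPM in Ms4a3-cko, against 1.18 and 0.695 CPM in Flox. Bcan in oligodendrocytes had 11.1 and 11.9 CPM in Ms4a3-cko, against 94.2 and 38.2 CPM in Flox. In the restricted set Fn1 had 0.46 against microglia, -0.29 against oligodendrocytes and 0.92 against endothelial cells, and Pmepa1 had 0.01. Neither passed there, nor did Postn (-2.17), Col6a3 (-2.86), Grb10 (-0.65), Ifitm1 (-0.38), Frzb (-4.61) and Ppic (-1.17). Their edgeR adjusted p was 0.259 or more. Gli2 (-4.95) and Itih5 (-3.08) still passed against oligodendrocytes (edgeR adjusted p = 0.0178 each). The genes listed above with positive differences also passed with the restricted set. That set keeps 86 of the 103 members of sub-cluster 5, which held most UMIs of Spata1, Gpbp1l1, Ambra1, Dcaf17 and Tesk2. For these genes it is therefore no separate check. In the restricted set without sub-cluster 5, Dcaf17 stood at 36.2 and 40.8 CPM in Ms4a3-cko, against 18.1 and 39.2 CPM in Flox. Spata1 and Tesk2 overlapped there too, while Gpbp1l1 and Ambra1 kept a smaller difference.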

How the results depend on the processing

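Over all astrocytes, where 0 genes passed, other settings gave 516 (DESeq2), 1564 (no filter), 50 (mean of at least 50 counts), 3 (restricted set), 77 (thinned), 317 (under 10% mitochondrial UMIs) and 14 to 1613 without 1 library. The restricted set's 3 became 132 (DESeq2) and 1 to 114 without 1 library. Differences between classes numbered 0 against microglia and oligodendrocytes with DESeq2's size factors, 23 against microglia in the restricted set, 24 against endothelial cells from 1000 UMIs, and 0 to 354, 0 to 350 and 199 to 641 without 1 library. The causes were not tested.

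Replicate numbers did not pair the samples (correlation of deviations -0.0617, and -0.0976 in the restricted set). With the replicate block 313 genes passed over all astrocytes and 103 in the restricted set, and Vim turned to 0.13 with it over all astrocytes.

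The share of astrocytes turned to -0.822 points over Ptprc-free barcodes. The Gfap share turned to -2.40 points in the restricted set and ran from -4.68 to 6.91 without 1 library, and the Vim share ran from -32.8 to 3.31. Log2 effects turned for Gfap (-0.55 with 4 markers, -0.40 restricted, -0.24 thinned; -0.34 to 0.46 without 1 library), Vim (0.00104 with 50 counts, -0.68 to 1.08 without 1 library), Aqp4 (-0.48 with 4 markers, -0.000624 unfiltered, -0.60 restricted, -0.27 thinned, -0.42 to 0.66 without 1 library), Slc1a3 (-0.10) and Kcnj10 (-0.073) restricted, and, without 1 library, Mki67 (-1.51 to 0.50) and Top2a (-2.24 to 0.44). Of single-gene values, 655 kept direction and side of the threshold, 259 passed it and 17 turned. With 2 libraries a genotype and shallow cells, a gene that did not pass may still differ, by a large change too.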

Other observations

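Barcodes with a burst of 1 rare transcript were 7 of 359 astrocytes (1.95%) and 9 of 592 (1.52%) in Ms4a3-cko, against 0 of 185 and 1 of 459 (0.218%) in Flox (exact permutation p = 0.3333, the smallest the design allows). The burst measure was set after the data were seen, and all 17 of these members lie in sub-cluster 5, so this p adds no support. With rare genes set by each class's own detection, they were 0.156% and 0.121% of microglia in Ms4a3-cko and 0.277% and 0.271% in Flox. In endothelial cells they were 0% in both Ms4a3-cko libraries and 0.709% and 0.437% in Flox, and in oligodendrocytes 0.159% and 0.184% in Ms4a3-cko and 0.363% and 0% in Flox. Choroid plexus markers summed to 1572 and 249 CPM in Ms4a3-cko astrocytes, against 7.47 and 184 CPM in Flox astrocytes, with 1290 UMIs of Ttr in a single barcode.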
